A study of Homo sapiens with 2 samples.

Results

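Small nucleolar and Cajal body RNAs were described in Caco-2 cells, an established line from a human colorectal adenocarcinoma whose confluent layers resemble enterocytes. The records were taken by symbol, as those that begin with SNORA, SNORD or SCARNA followed by a digit. There were 392 of them among the 23709 records of the table, with 106 box H/ACA RNAs (SNORA), 262 box C/D RNAs (SNORD) and 24 Cajal body RNAs (SCARNA). The RNC-mRNA library was made from polyadenylated RNA bound in ribosome-nascent chain complexes, which are meant to carry messages under translation. The mRNA library was made from polyadenylated RNA of total RNA. Both came from Caco-2 cells kept in DMEM with serum, penicillin/streptomycin and ciprofloxacin, with no other treatment named. Each group was 1 library, and the labels do not say whether both came from the same culture. With no replicates, every difference below compares 2 libraries, and no test was possible.

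Box C/D RNAs guide 2'-O-methylation and box H/ACA RNAs guide pseudouridylation, mostly of ribosomal RNA in the nucleolus. Cajal body RNAs carry one or both of these box types and guide the same modifications on spliceosomal snRNAs. Most human genes of all 3 classes lie inside introns of host genes and are cut out of the host's spliced introns, while some have promoters of their own. The mature RNAs stay in the nucleus, are bound by core proteins and, as a rule, carry no poly(A) tail. How far the RNAs measured here were polyadenylated was not tested.

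The values were RPKM, reads scaled by the record's length and the library's total. The read count behind each value was worked out from the RPKM and the record's length, with library totals of 11083302 reads for RNC-mRNA and 9640364 reads for mRNA. Ratios are RNC-mRNA over mRNA on the log2 scale, relative to the median of the 13402 records whose mean RPKM was 1 or more. For counts and medians over records 0.1 RPKM was added to both values, which understates the ratio of low records above 0 in both libraries. For a record at 0 in one library this ratio is set by the 0.1 and can lie far beyond what its reads bear out. For single records the plain ratio is given with an exact Clopper-Pearson 95% interval. Where a library had 0 reads, only the end of the interval nearer the median is given. These intervals, and the limit of 3 reads that a count of 0 allows, cover counting error only, since PCR copies are not independent molecules. In bulk libraries a lower level per cell and fewer cells with the RNA cannot be told apart. Most epithelial markers were high, such as EPCAM at 273 RPKM in RNC-mRNA and 244 RPKM in mRNA. VIL1 stood at 116 RPKM in RNC-mRNA and 109 RPKM in mRNA. The lowest of the epithelial markers were SI and ALPI. SI stood at 4.28 RPKM in RNC-mRNA and 5.94 RPKM in mRNA. ALPI stood at 8.74 RPKM in RNC-mRNA and 7.77 RPKM in mRNA. Of 6 markers of other cell types, the highest was the endothelial PECAM1, at 1.58 RPKM in RNC-mRNA and 4.12 RPKM in mRNA, and the red cell gene HBB was listed at 0 in both libraries.

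The sequences that the results turn on are given first, 5′ to 3′ on the RNA strand with T for U, from GENCODE release 29 on GRCh38. The 3 shown here had many reads in mRNA and few or none in RNC-mRNA. SCARNA9 has 353 bases and lies in an intron of CEP295. Its first 300 bases, shown here, are at chr11:93721513-93721812 on the plus strand. SNORA12 lies at chr10:100237156-100237302 on the minus strand, in an intron of CWF19L1. SCARNA16 lies at chr17:77089307-77089493 on the plus strand, inside an exon of the long non-coding RNA SNHG20. Inside an exon here means within an exon of any annotated transcript, also one that keeps an intron. All same-strand genes that span the record were used, so the named host need not be the gene with that exon. Capitals mark the letters TGATGA (C box) and CTGA (D box) wherever they occur in this stretch of SCARNA9. In SNORA12 and SCARNA16 they mark ANANNA (H box) in the middle part and ACA close to the 3′ end.
SCARNA9: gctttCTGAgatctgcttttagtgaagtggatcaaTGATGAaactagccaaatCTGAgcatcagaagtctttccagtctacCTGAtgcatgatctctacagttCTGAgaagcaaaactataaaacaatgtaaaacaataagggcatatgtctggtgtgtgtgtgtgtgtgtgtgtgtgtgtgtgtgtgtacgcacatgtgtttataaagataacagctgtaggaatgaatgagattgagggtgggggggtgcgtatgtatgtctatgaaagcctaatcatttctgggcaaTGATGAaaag
SNORA12: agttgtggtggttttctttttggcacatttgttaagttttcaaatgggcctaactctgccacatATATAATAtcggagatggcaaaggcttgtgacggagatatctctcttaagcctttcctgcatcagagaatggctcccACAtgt
SCARNA16: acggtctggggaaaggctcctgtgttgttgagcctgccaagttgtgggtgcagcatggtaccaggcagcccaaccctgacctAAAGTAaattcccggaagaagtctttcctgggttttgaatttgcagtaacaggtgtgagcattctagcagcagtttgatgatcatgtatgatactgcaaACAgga

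The next 2 are exonic in this sense. SNORA40 lies at chr11:93735111-93735236 on the minus strand inside an exon of TAF1D, and SNORD36A at chr9:133350456-133350528 on the plus strand inside an exon of RPL7A. Capitals mark ANANNA in the middle part of SNORA40 and CTGA in the last 20 bases of SNORD36A.
SNORA40: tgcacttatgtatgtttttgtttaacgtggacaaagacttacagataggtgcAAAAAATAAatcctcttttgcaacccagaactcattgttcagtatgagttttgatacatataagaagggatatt
SNORD36A: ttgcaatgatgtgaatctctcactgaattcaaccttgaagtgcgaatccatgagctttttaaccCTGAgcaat
The last 3 were near the median ratio or above it. SNORD17 lies at chr20:17962710-17962946 on the minus strand in an intron of SNX5. SNORD88B lies at chr19:50799032-50799122 on the minus strand inside an exon of C19orf48. SNORD116-14 lies at chr15:25080142-25080233 on the plus strand in an intron of SNHG14. Capitals mark TGATGA in the first 20 bases and CTGA in the last 20.
SNORD17: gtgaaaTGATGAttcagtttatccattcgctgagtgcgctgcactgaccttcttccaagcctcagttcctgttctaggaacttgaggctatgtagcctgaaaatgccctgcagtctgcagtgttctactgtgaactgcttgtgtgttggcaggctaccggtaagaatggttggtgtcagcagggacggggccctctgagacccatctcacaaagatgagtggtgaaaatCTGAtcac
SNORD88B: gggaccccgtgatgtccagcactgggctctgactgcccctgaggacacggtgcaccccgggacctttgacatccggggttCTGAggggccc
SNORD116-14: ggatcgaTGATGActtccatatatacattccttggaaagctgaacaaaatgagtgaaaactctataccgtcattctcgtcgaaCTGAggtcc

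The boxes were counted by class in the 371 records matched to a GENCODE transcript, on the RNA strand alone. Of 243 C/D sequences, 73.3% held TGATGA in their first 20 bases, 97.1% held CTGA in their last 20 and 72.0% held both. Among 5878 other short GENCODE transcripts, 0.017% held both. Of 106 H/ACA sequences, 81.1% held ANANNA in the middle part (between equal end parts) together with ACA followed by 1 to 5 bases, against 3.33% of the other short transcripts. Of 22 Cajal body sequences, 22.7% held the C/D pair and 59.1% the H/ACA pair, and TGAG, the Cajal body localisation box, occurred anywhere in 68.2%, against 47.1% of the other short transcripts. TGAG was also found in 87.7% of C/D sequences, where it can overlap the D box. C/D records with both boxes were listed above 0 in RNC-mRNA for 31 of 175 and in mRNA for 44 of 175. Those without the pair were above 0 in RNC-mRNA for 12 of 68 and in mRNA for 26 of 68.

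Fewer records were detected with ribosomes than in total polyadenylated RNA. A value above 0 was listed for 106 of 392 records (27.0%) in RNC-mRNA and for 172 (43.9%) in mRNA. Over all records of the table, 75.7% were above 0 in RNC-mRNA and 79.1% in mRNA, and over the 5063 non-coding (NR) records 48.5% in RNC-mRNA and 55.6% in mRNA. Both libraries listed 84 of the small RNAs above 0, 22 were above 0 in RNC-mRNA alone, 88 in mRNA alone, and 198 were at 0 in both. None of the 22 found in RNC-mRNA alone had more than 3 reads. Of the 88 found in mRNA alone, 15 had at least 4 reads and the highest, SNORA12, had 34.

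The reads behind these values were few, so most single records cannot be compared. The small RNAs together had 283 reads in RNC-mRNA and 1155 reads in mRNA, or 25.5 per 1000000 library reads in RNC-mRNA and 120 in mRNA. Their share of reads was 4.69-fold lower in RNC-mRNA, with a 95% interval of 4.12 to 5.36. The record SCARNA9 alone gave 31.3% of the mRNA reads. Without it the sums were 266 reads in RNC-mRNA and 794 reads in mRNA, a share 3.43-fold lower (interval 2.98 to 3.96). Records above 0 had a median of 2 reads in either library. Exactly 1 read stood behind 51 records in RNC-mRNA and 55 in mRNA, and at least 10 reads behind 6 in RNC-mRNA and 19 in mRNA. A value of 0 allows up to 0.643 to 8.2 RPKM in RNC-mRNA and 0.739 to 9.43 RPKM in mRNA, depending on the record's length.

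The 3 classes differed in detection and in depth. H/ACA records were above 0 for 46 of 106 (43.4%) in RNC-mRNA and 77 of 106 (72.6%) in mRNA. Their 114 reads in RNC-mRNA and 335 in mRNA gave a share 3.38-fold lower in RNC-mRNA (interval 2.72 to 4.22). C/D records were above 0 for 49 of 262 (18.7%) in RNC-mRNA and 80 of 262 (30.5%) in mRNA. Their 125 reads in RNC-mRNA and 257 in mRNA gave a share 2.36-fold lower (interval 1.90 to 2.95). Cajal body records were above 0 for 11 of 24 (45.8%) in RNC-mRNA and 15 of 24 (62.5%) in mRNA. Their 44 reads in RNC-mRNA and 563 in mRNA gave a share 14.7-fold lower (interval 10.8 to 20.5), and 8.60-fold lower (interval 5.74 to 13.4) without SCARNA9. The interval of the Cajal body class lay beyond those of the other classes with or without SCARNA9, but 534 of its 563 mRNA reads came from the 10 records of 200 nt or more. From 100 to under 150 nt, a length all 3 classes share, the 12 Cajal body records were 2.99-fold lower (interval 1.0 to 10.7, from 5 reads in RNC-mRNA and 13 in mRNA), against 3.31-fold for H/ACA and 3.87-fold for C/D.

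**Figure D1:**
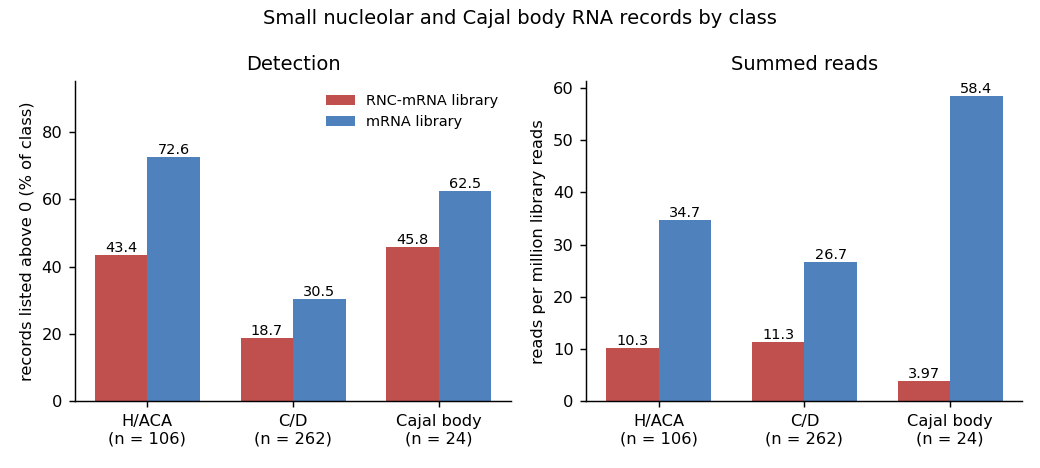
Left, the percentage of each class's records listed above 0; right, the summed reads per 1000000 library reads, in RNC-mRNA (left bar of each pair) and mRNA (right bar). Each bar is 1 library, with no error bar. All 3 classes were lower in RNC-mRNA on both scales, with the widest gap in reads for Cajal body RNAs, at 3.97 per 1000000 in RNC-mRNA and 58.4 in mRNA.

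Summed RPKM, which weights short records more, kept the same direction in every class. All records together summed to 203 RPKM in RNC-mRNA and 747 RPKM in mRNA, 3.68-fold lower. H/ACA RNAs summed to 75.9 RPKM in RNC-mRNA and 253 RPKM in mRNA, C/D RNAs to 113 RPKM in RNC-mRNA and 315 RPKM in mRNA, and Cajal body RNAs to 14.3 RPKM in RNC-mRNA and 179 RPKM in mRNA. Cajal body RNAs thus gave a larger part of the summed level in mRNA than in RNC-mRNA.

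Among the 111 records with a mean of at least 1 RPKM, 78 (70.3%) were at least 2-fold lower in RNC-mRNA relative to the median. Over all 13402 records at this level the share was 11.8%, and over the NR records 35.3%. At least 2-fold higher were 4 of the 111, where the share over all records was 1.37% and over NR records 1.71%. They were SNORA6, SNORA50, SNORD116-4 and SNORD116-14. By class, 32 of 45 H/ACA, 34 of 54 C/D and 12 of 12 Cajal body records were at least 2-fold lower. The median relative ratio was -1.62 over the 111, -1.42 for H/ACA, -1.82 for C/D and -3.37 for Cajal body RNAs, against -0.47 over NR records. However, 34 of the 111 were listed at 0 in RNC-mRNA, reached this level through mRNA alone and had to count as lower, some with 2 or 3 reads. SNORD116-14 was at 0 in mRNA and had to count as higher. Among the 76 records above 0 in both libraries, 44 (57.9%) were at least 2-fold lower and 3 higher, where all such records of the table gave 11.4% lower and 1.33% higher. Their median was -1.10, with 22 of 35 H/ACA (median -1.10), 13 of 32 C/D (median -0.57) and 9 of 9 Cajal body records (median -3.08) at least 2-fold lower. A record of short length passes this level with few reads, and the counting interval lay wholly below the median for 24 of the 111, against 30.4% of all such records. None of the 111 had an interval wholly above the median, against 31.9% of all such records.

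With at least 10 reads over both libraries together, 26 records could be compared more closely. Of these, 21 were at least 2-fold lower in RNC-mRNA (80.8%) and 0 were at least 2-fold higher. All records of the table with as many reads gave 14.8% lower and 1.55% higher. SNORA12, SCARNA16 and SCARNA9L were at 0 in RNC-mRNA, reached this depth through mRNA alone and had to count as lower. Others reached it mostly through mRNA, such as SCARNA2 with 1 read in RNC-mRNA and 14 in mRNA. The interval lay wholly below the median for 18 of the 26. No share over all records with as many reads was counted for this, so it cannot be read as an excess. At a mean of at least 1 RPKM it was 24 of the 111, below the 30.4% of all such records. Among the 26, the interval lay wholly beyond 2-fold lower for 8, SNORA12, SCARNA16 and SCARNA9L among them. Over the 111 records with a mean of at least 1 RPKM it was the same 8. As a share this is close to the 5.68% of all records at that level. These 8 were the Cajal body RNAs SCARNA2, SCARNA9, SCARNA9L, SCARNA12, SCARNA16 and SCARNA17, the H/ACA RNA SNORA12 and the C/D RNA SNORD36A. The 5 records within 2-fold of the median were SNORA10, SNORA64, SNORA71C, SNORD17 and SNORD88B.

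**Figure D2:**
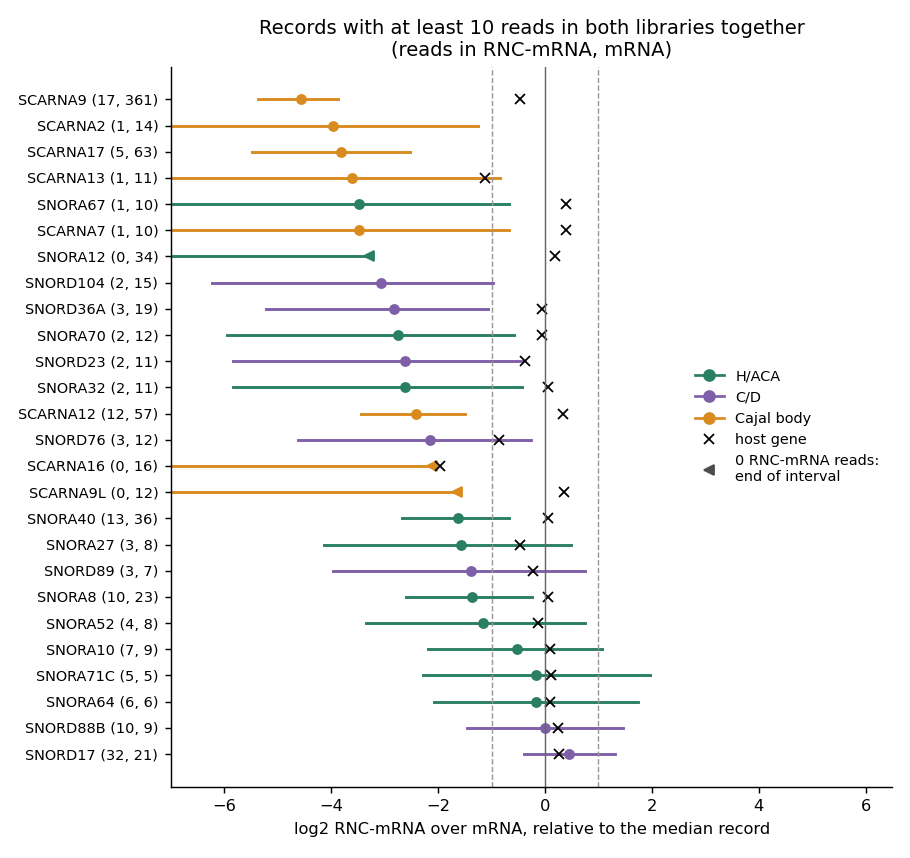
Relative log2 ratio of RNC-mRNA over mRNA for the 26 records with at least 10 reads in both libraries together. Points are ratios and lines their exact 95% counting intervals (cut at the left edge of the axis), triangles the end of the interval for records with 0 RNC-mRNA reads, crosses the host gene's own ratio, and dashed lines a 2-fold difference. Of the 26 records, 21 lie left of the lower dashed line, SCARNA9 at -4.57, and none lies right of the upper one, while the crosses lie between -1.96 and 0.39.

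Of the Cajal body RNAs, SCARNA9 guides 2'-O-methylation of the U2 snRNA and had the highest level of any record in mRNA. It stood at 4.35 RPKM in RNC-mRNA and 106 RPKM in mRNA, with 17 reads in RNC-mRNA and 361 reads in mRNA. Its relative ratio was -4.57 (interval -5.37 to -3.87), 23.8-fold lower. SCARNA9L, a related gene on the X chromosome inside EIF1AX, was at 0 in RNC-mRNA and at 3.58 RPKM from 12 reads in mRNA, with an interval that ended at -1.64. How the authors' counting divided reads between such copies is not stated in the labels. SCARNA17, a C/D RNA that guides modification of minor and major spliceosomal snRNAs and had no host gene in the annotation, stood at 1.07 RPKM in RNC-mRNA and 15.5 RPKM in mRNA. Its 5 reads in RNC-mRNA and 63 in mRNA gave a ratio of -3.82 (interval -5.49 to -2.52), 14.1-fold lower.

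SCARNA12, which holds both box types, stood at 4.01 RPKM in RNC-mRNA and 21.9 RPKM in mRNA, from 12 reads in RNC-mRNA and 57 reads in mRNA. Its ratio of -2.41 (interval -3.44 to -1.50) was a 5.32-fold lower level, so its interval lay above that of SCARNA9. SCARNA16, an H/ACA-type RNA, was at 0 in RNC-mRNA and at 8.88 RPKM from 16 reads in mRNA, with an interval that ended at -2.11. SCARNA2, another guide of the U2 snRNA, had 1 read in RNC-mRNA and 14 reads in mRNA, at 0.215 RPKM in RNC-mRNA and 3.46 RPKM in mRNA. SCARNA13 had 1 read (0.328 RPKM) in RNC-mRNA and 11 reads (4.15 RPKM) in mRNA, and SCARNA7, a guide of the U1 snRNA, 1 read (0.273 RPKM) in RNC-mRNA and 10 reads (3.14 RPKM) in mRNA. The intervals of these last 3 ratios lay below the median, at -9.37 to -1.25 for SCARNA2, -9.05 to -0.84 for SCARNA13 and -8.92 to -0.67 for SCARNA7.

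The other Cajal body RNAs were too shallow to compare. SCARNA10, which guides modification of the U5 snRNA, had 2 reads (0.547 RPKM) in RNC-mRNA and 6 reads (1.89 RPKM) in mRNA. SCARNA22 had 2 reads in RNC-mRNA and 4 in mRNA, SCARNA4 had 1 read in RNC-mRNA and 2 in mRNA, and SCARNA20 had 0 reads in RNC-mRNA and 4 in mRNA. SCARNA8, SCARNA15 and SCARNA21 each had 0 reads in RNC-mRNA and 1 read in mRNA. The reverse held for SCARNA18 and SCARNA27, each with 1 read in RNC-mRNA and 0 reads in mRNA. Listed at 0 in both libraries were 7 records, SCARNA1, SCARNA3, SCARNA5, SCARNA6, SCARNA11, SCARNA14 and SCARNA23.

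**Figure D3:**
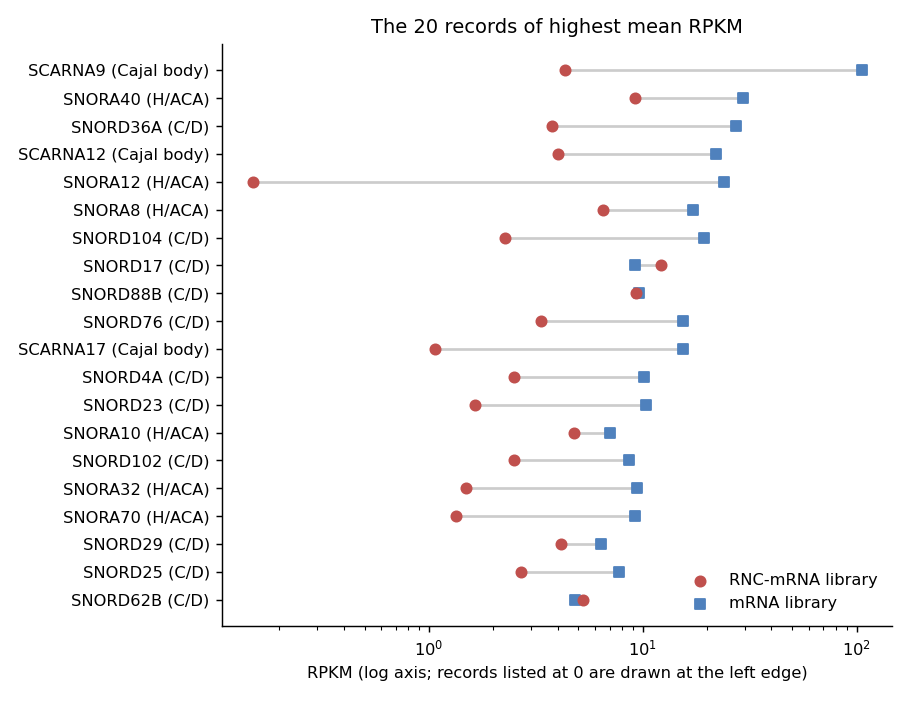
RPKM on a log axis for the 20 records of highest mean RPKM over both libraries, RNC-mRNA as circles and mRNA as squares joined by a line; a record listed at 0 is drawn at the left edge. SCARNA9 has the widest gap of those drawn above 0 in both libraries, at 4.35 RPKM in RNC-mRNA and 106 RPKM in mRNA, while SNORD17 stands at 12.2 RPKM in RNC-mRNA and 9.19 RPKM in mRNA.

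Of the H/ACA RNAs, SNORA12 showed the widest difference. It was at 0 in RNC-mRNA and at 24.0 RPKM from 34 reads in mRNA, with an interval that ended at -3.29. Its host CWF19L1 stood at 11.1 RPKM in RNC-mRNA and 10.0 RPKM in mRNA, a relative ratio of 0.18. SNORA40, inside an exon of TAF1D, had the highest level of the class, at 9.24 RPKM in RNC-mRNA and 29.4 RPKM in mRNA. Its 13 reads in RNC-mRNA and 36 in mRNA gave a ratio of -1.63 (interval -2.67 to -0.68). SNORA8, in the same gene, stood at 6.49 RPKM in RNC-mRNA and 17.2 RPKM in mRNA, with a ratio of -1.36 (interval -2.60 to -0.24). Both of these intervals lay below the median and did not clear a 2-fold difference.

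SNORA10 and SNORA64, both inside the ribosomal protein gene RPS2, lay closer to the median. SNORA10 stood at 4.75 RPKM in RNC-mRNA and 7.02 RPKM in mRNA (7 reads in RNC-mRNA and 9 in mRNA), with an interval of -2.19 to 1.07. SNORA64 stood at 4.04 RPKM in RNC-mRNA and 4.64 RPKM in mRNA, from 6 reads in each. At this depth a 2-fold difference in either direction was not detectable for them. The highest H/ACA ratios came from a handful of reads. SNORA6, inside RPSA, had 5 reads (3.03 RPKM) in RNC-mRNA and 2 reads (1.39 RPKM) in mRNA, with an interval of -1.45 to 4.55. SNORA50, inside CNOT1, had 3 reads (1.99 RPKM) in RNC-mRNA and 1 read (0.763 RPKM) in mRNA. SNORA74A, an RNA linked to pre-ribosomal RNA processing, had 1 read in each library.

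Among the C/D RNAs, SNORD36A, a guide of ribosomal RNA methylation inside RPL7A, stood at 3.76 RPKM in RNC-mRNA and 27.4 RPKM in mRNA. Its 3 reads in RNC-mRNA and 19 in mRNA gave a ratio of -2.83 (interval -5.23 to -1.06), 7.09-fold lower. SNORD104, in an intron of SNHG25, stood at 2.26 RPKM in RNC-mRNA and 19.4 RPKM in mRNA, with a ratio of -3.07 (interval -6.24 to -0.97). SNORD76, in the span of GAS5, stood at 3.34 RPKM in RNC-mRNA and 15.4 RPKM in mRNA (3 reads in RNC-mRNA and 12 in mRNA), and SNORD23, inside NOP53, at 1.64 RPKM in RNC-mRNA and 10.4 RPKM in mRNA (2 reads in RNC-mRNA and 11 in mRNA). The intervals of both lay below the median, at -4.63 to -0.27 for SNORD76 and -5.84 to -0.43 for SNORD23. SNORD80 and SNORD47, also within GAS5, were at 0 in RNC-mRNA and had 6 reads each in mRNA, with intervals that ended at -0.40, below the median but within 2-fold of it. SNORD48 was at 0 in RNC-mRNA and had 4 reads in mRNA. SNORD22, which in Xenopus is needed for ribosomal RNA processing, had 1 read in RNC-mRNA and 6 reads in mRNA, with an interval of -8.27 to 0.30 that includes the median.

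SNORD17 had the highest level and the most reads of any record in RNC-mRNA. It is an unusually long C/D RNA that guides methylation of the large-subunit ribosomal RNA. It stood at 12.2 RPKM from 32 reads in RNC-mRNA and 9.19 RPKM from 21 reads in mRNA. Its ratio was 0.44 (interval -0.39 to 1.31), 1.36-fold higher, and the interval includes the median. Its host SNX5, which encodes a sorting nexin, had a ratio of 0.26, at 96.8 RPKM in RNC-mRNA and 83.2 RPKM in mRNA. Without SNORD17 the C/D class had 93 reads in RNC-mRNA and 236 in mRNA, a share 2.92-fold lower (interval 2.29 to 3.75). SNORD88B stood at 9.30 RPKM from 10 reads in RNC-mRNA and 9.62 RPKM from 9 reads in mRNA, with a ratio of -0.01 (interval -1.46 to 1.46).

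Other C/D records near or above the median had 5 or fewer reads in each library. SNORD62B, inside PRRC2B, stood at 5.25 RPKM in RNC-mRNA and 4.82 RPKM in mRNA, from 5 reads in RNC-mRNA and 4 in mRNA. Its sequence was identical to that of SNORD62A, which was listed at 0 in both libraries, so their reads cannot be told apart by sequence. SNORD32A, inside RPL13A, had 4 reads (4.40 RPKM) in RNC-mRNA and 2 reads (2.53 RPKM) in mRNA, and SNORD29, within SNHG1, 3 reads (4.16 RPKM) in RNC-mRNA and 4 reads (6.38 RPKM) in mRNA. Their intervals were -1.97 to 4.30 for SNORD32A and -3.35 to 1.99 for SNORD29, and both include the median.

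The C/D class includes large imprinted families of near-identical copies on chromosomes 14 and 15, which are best known from brain and have few known ribosomal targets. The 38 SNORD113 and SNORD114 records and the 47 SNORD115 records, one of whose copies is linked to a serotonin receptor mRNA, were all listed at 0 in both libraries. SNORD116, the family deleted in Prader-Willi syndrome, was above 0 for 7 of 29 records in RNC-mRNA and 3 of 29 in mRNA, with 12 reads in RNC-mRNA and 5 in mRNA. The ratio of these sums, given as fold lower in RNC-mRNA, was 0.479 with an interval of 0.132 to 1.46, so a difference was not detectable. SNORD116-14 had 3 reads (2.88 RPKM) in RNC-mRNA and 0 reads in mRNA, and SNORD116-4 had 3 reads (2.76 RPKM) in RNC-mRNA and 1 read (1.06 RPKM) in mRNA. Of the 29 SNORD116 sequences 6 were identical to another record's, so reads of single copies are uncertain.

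Leaving out all imprinted families, 143 C/D records remained, of which 41 (28.7%) were above 0 in RNC-mRNA and 77 (53.8%) in mRNA. They held 112 reads in RNC-mRNA and 252 in mRNA, a share 2.59-fold lower (interval 2.06 to 3.26). The 119 records of the imprinted families held 13 reads in RNC-mRNA and 5 in mRNA.

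Detection differed with the length of the record in both libraries. H/ACA records were 121 to 250 nt long (median 134), C/D records 33 to 237 nt (median 80) and Cajal body records 125 to 421 nt (median 155), while the labels give inserts of 120 to 200 bp. Of 241 records under 100 nt, all of them C/D, 41 (17%) were above 0 in RNC-mRNA and 70 (29%) in mRNA. Of these, 117 belong to the imprinted families, and among the other 124 the shares were 26.6% in RNC-mRNA and 54.0% in mRNA, closer to the next band. Of 129 records from 100 to under 150 nt, 40.3% were above 0 in RNC-mRNA and 64.3% in mRNA. Of 15 records of 200 nt or more, 66.7% were above 0 in RNC-mRNA and 86.7% in mRNA. The share of reads was lower in RNC-mRNA in each band, by 2.79-fold under 100 nt, 3.35-fold from 100 to under 150 nt, 7.47-fold in the 7 records from 150 to under 200 nt and 8.96-fold at 200 nt or more. Without SCARNA9 the longest band was 4.27-fold lower (interval 3.17 to 5.84), from 56 reads in RNC-mRNA and 208 in mRNA. The 7 C/D records of 120 nt or more held 33 reads in RNC-mRNA and 32 in mRNA, and their interval of 0.664 to 1.87-fold lower includes no difference. SNORD17 alone gave 32 of these reads in RNC-mRNA and 21 in mRNA, so this interval rests on that record. In the longest band 10 of the 15 records were Cajal body RNAs. Length and class therefore cannot be told apart there. The part of insert selection in these values was not tested.

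**Figure D4:**
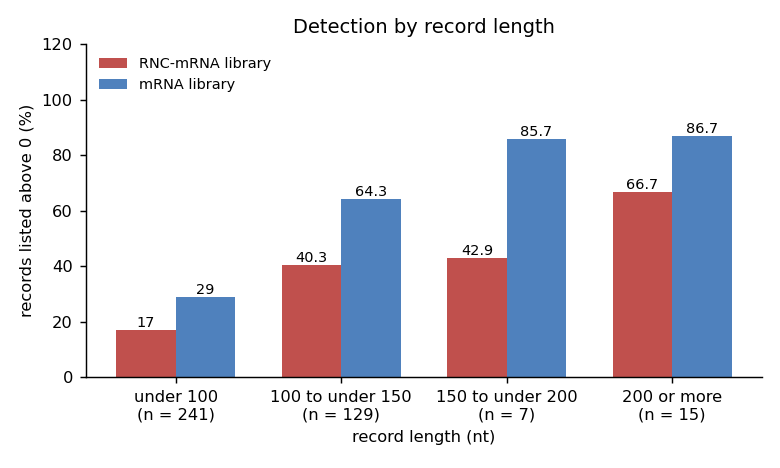
Percentage of records listed above 0 by record length in nucleotides, RNC-mRNA (left bar) and mRNA (right bar), with the number of records under each band; each bar is 1 library. Detection is lowest under 100 nt, at 17% in RNC-mRNA and 29% in mRNA, a band in which 117 of 241 records belong to the imprinted families, and the RNC-mRNA bar is the lower one in every band.

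The place of a record in its host gene was read from GENCODE release 29. Inside an exon of any annotated transcript of a gene on the same strand lay 113 records. A further 232 lay in introns only and 23 partly overlapped an exon. By RefSeq, 21 were placed only within a gene's span, and 3 had no host (SCARNA17, SNORD32B and SNORA70G). Exonic records were above 0 for 38.1% in RNC-mRNA and 64.6% in mRNA, and intronic records for 20.7% in RNC-mRNA and 29.7% in mRNA. Many intronic records belong to the imprinted families. Among C/D records outside those families, 32.8% of exonic records were above 0 in RNC-mRNA and 60.3% in mRNA, and 25.0% of intronic records in RNC-mRNA and 42.3% in mRNA. Both kinds had a lower share of reads in RNC-mRNA over all classes, by 3.31-fold for exonic records (interval 2.68 to 4.10) and 5.63-fold for intronic ones (interval 4.63 to 6.91). Without SCARNA9 the intronic records were 2.56-fold lower (interval 2.03 to 3.26), from 104 reads in RNC-mRNA and 232 in mRNA, so the order of the 2 kinds rests on that record. Reads of an exonic record cannot be told apart from reads of a host transcript that keeps the sequence, and whether the libraries keep strand is not stated in the labels.

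The host genes themselves were close to the median. Of 151 hosts with a mean of at least 1 RPKM, 6 (3.97%) were at least 2-fold lower in RNC-mRNA and 1, GTF2A1, was at least 2-fold higher, with a median ratio of -0.02. Over all records at this level, 11.8% were at least 2-fold lower and 1.37% at least 2-fold higher. Of the 104 small RNAs with a mean of at least 1 RPKM and a host in the table, 89 had a lower ratio than their host and 15 a higher one, with a median of -1.63 for the small RNAs and -0.11 for the hosts beside them. Those at 0 in RNC-mRNA were bound to fall below their host, and among the 70 above 0 in both libraries 55 were lower and 15 higher, with medians of -1.10 for the small RNAs and -0.13 for the hosts. Of the 104, 29 lay in introns only, those at 0 in RNC-mRNA included, and 24 of the 29 were below their host. In mRNA 99 of the 104 stood below their host's RPKM. The 5 that stood above it were SCARNA9 (106 RPKM, host 9.03 RPKM), SNORA12 (24.0 RPKM, host 10.0 RPKM), SCARNA16 (8.88 RPKM, host 6.93 RPKM), SCARNA13 (4.15 RPKM, host 4.02 RPKM) and SNORA22 (3.87 RPKM, host 2.41 RPKM). In RNC-mRNA 1 of the 104 did, SNORA7B, at 2.60 RPKM beside 2.39 RPKM of RPL32P3. SNORA22, SNORA7B and GTF2A1 were named after their values were seen.

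Some hosts hold many small RNAs. TAF1D, which encodes a subunit of the RNA polymerase I selectivity factor, holds 8 records with 29 reads in RNC-mRNA and 81 in mRNA, a ratio of -1.64 (interval -2.31 to -1.02), while TAF1D itself stood at 42.9 RPKM in RNC-mRNA and 42.6 RPKM in mRNA (ratio 0.05). GAS5, a long non-coding RNA whose exons are poorly conserved, holds 10 records with 7 reads in RNC-mRNA and 28 in mRNA, a ratio of -2.16 (interval -3.60 to -0.93), against -0.87 for GAS5, at 95.9 RPKM in RNC-mRNA and 180 RPKM in mRNA. SNHG1 holds 8 records with 6 reads in RNC-mRNA and 21 in mRNA, a ratio of -1.97 (interval -3.57 to -0.61), against -0.68 for SNHG1. The interval of the TAF1D records lay below the host's ratio, as did that of the GAS5 records, while that of the SNHG1 records included it.

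Among hosts that encode proteins of translation, EIF4A2 holds 4 records with 1 read in RNC-mRNA and 20 reads in mRNA, a ratio of -4.48 (interval -9.86 to -1.84), against -0.19 for the host. Its SNORA63 was at 0 in RNC-mRNA and at 5.38 RPKM from 7 reads in mRNA. EIF4A1 holds 3 records with 1 read in RNC-mRNA and 14 reads in mRNA, a ratio of -3.97 (interval -9.37 to -1.25), against 0.39 for the host. RPL7A holds 4 records with 4 reads in RNC-mRNA and 22 in mRNA, a ratio of -2.62 (interval -4.62 to -1.06), against -0.06 for the host, which stood at 1622 RPKM in RNC-mRNA and 1733 RPKM in mRNA. The 2 records of RPS2 had 13 reads in RNC-mRNA and 15 in mRNA, a ratio of -0.37 (interval -1.56 to 0.80), against 0.09 for RPS2. Outside this group of hosts, the 3 records of C19orf48 had 11 reads in RNC-mRNA and 12 in mRNA. Their ratio was -0.29 (interval -1.61 to 1.02), against 0.25 for the host. The intervals of the last 2 include the host's ratio, and those of EIF4A2, EIF4A1 and RPL7A lie below it.

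**Figure D5:**
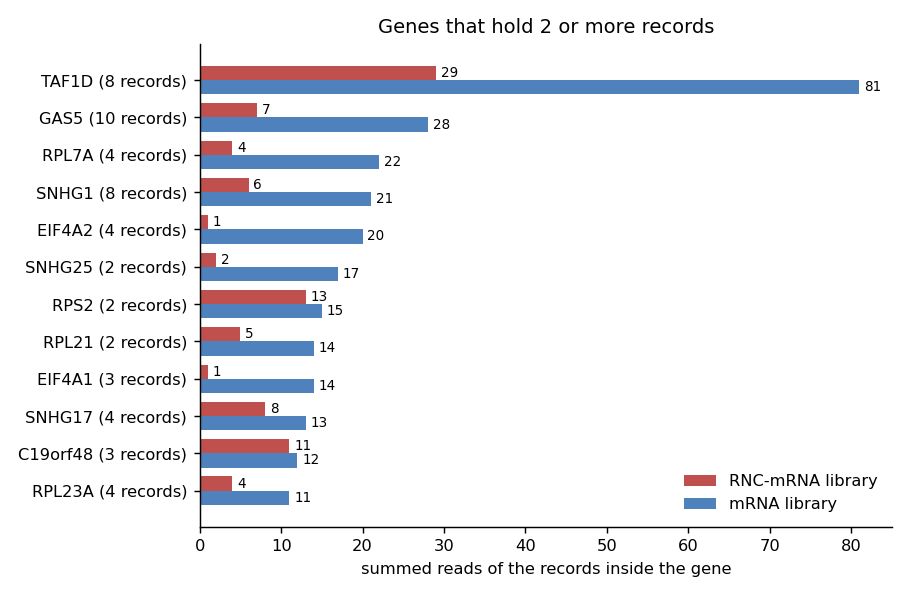
Summed reads of the small RNA records inside each gene that holds 2 or more of them, for the 12 genes with the most mRNA reads, RNC-mRNA as the upper bar and mRNA as the lower bar of each pair. TAF1D leads with 29 reads in RNC-mRNA and 81 in mRNA, and the bars of RPS2 (13 in RNC-mRNA and 15 in mRNA) and C19orf48 (11 in RNC-mRNA and 12 in mRNA) are nearly equal.

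Messages for the proteins that bind and assemble these RNAs stood near the median. All 37 genes of that list were expressed at a mean of at least 1 RPKM, and 0 were at least 2-fold lower or higher, with a median ratio of 0.01. The shares over all records at this level were 11.8% lower and 1.37% higher. Of the C/D core, FBL, the methyltransferase, stood at 271 RPKM in RNC-mRNA and 247 RPKM in mRNA (ratio 0.17). NOP56 had a ratio of -0.11, NOP58 of 0.01 and NHP2L1 of 0.39. Of the H/ACA core, DKC1, the pseudouridine synthase, stood at 35.0 RPKM in RNC-mRNA and 36.9 RPKM in mRNA (ratio -0.04). NHP2 had a ratio of 0.53, NOP10 of 0.34 and GAR1 of 0.14. COIL, the scaffold protein of Cajal bodies, had a ratio of 0.05 and WRAP53, which brings RNAs there, 0.01. The ends of the list were LARP7 at -0.78 and NUFIP1 at 0.60.

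The same measures were taken on other short or non-coding RNAs of the table. Of 1294 microRNA precursor records, 4.48% were above 0 in RNC-mRNA and 9.66% in mRNA, and 32 of the 55 with a mean of at least 1 RPKM were at least 2-fold lower, with a median ratio of -1.92. Of 12 other structured small RNAs (such as the RNA parts of RNase P and telomerase), 4 were above 0 in RNC-mRNA and 9 in mRNA, and 7 of 7 at this level were at least 2-fold lower, with a median of -4.52. Of 16 long non-coding RNAs found by symbol as small nucleolar RNA hosts, 2 (SNHG9 and SNHG10) were at least 2-fold lower, with a median of -0.43. Hosts listed under other symbols are not among the 16, such as SNHG20 (ratio -1.96), SNHG17 (0.12) and ZFAS1 (-0.19). Over all records with a mean of at least 1 RPKM, 11.8% were at least 2-fold lower. Short records at 0 in RNC-mRNA enter these counts and medians in the same way as above.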

How the data were processed

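Poly(A) RNA of the RNC-mRNA and mRNA libraries was heat-fragmented (94 °C, 8 min) and amplified with 12 PCR cycles, per the labels' protocols. The deposited RPKM values were computed by the authors for 1 RefSeq record per symbol, per the file headers. Per the submitters' processing notes, reads were placed on hg19. The aligner, strand and handling of reads that match several places are not given in the sources used here.

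Library totals were taken as the smallest at which RPKM times RefSeq length gives whole reads. Of 276 values of the small RNAs above 0, 262 (94.9%) were whole within 0.001. Of 194 records above 0, 183 were read at the RefSeq length and 11 at the nearest length that gave whole reads. Reads are the fewest that the values allow. The recovery was tested on simulated data. Sequences, hosts and exons came from GENCODE 29 on GRCh38 by accession (371 records matched), and the host span of the other 21 from RefSeq on GRCh38; GENCODE ends can differ by a few bases from the record measured, and no coordinate was moved between builds.

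Each group has 1 library, so a 2-fold difference from the median stood in for a test. Scripts used Python 3.11.15, pandas 2.3.3 and SciPy 1.17.1. Records were named by rule: in each library the 10 of highest RPKM, the 5 highest and 5 lowest ratios at a mean of at least 1 RPKM, any at 0 in one library and at least 10 RPKM in the other, every Cajal body record above 0, RNAs of known role, hosts, and core proteins. Records with at least 10 reads and hosts with many mRNA reads were added after their values were seen. SNORD3A, SNORD118, SNORD13, SNORD14A, SNORA73A and SNORA73B are not analysed here. The records and lists were chosen with earlier results of these data known. Alternatives were other pseudocounts, filters, lengths and single records left out.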

Additional observations from a re-analysis of the deposited data

How the results depend on the processing

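No class median, summed level or share of reads changed direction under any alternative run. Counts and percentages of records could only be marked as close or moved, so they could not show a reversal. A single ratio could be marked as reversed only where its interval excluded the median. Of 125 alternatives to a class value, 87 stayed close to it and 38 moved. Of 75 alternatives to the ratio of a single record, 63 stayed close and 12 moved, all of records at 0 in one library under other pseudocounts: SNORA12 gave -11.19 with 0.01 and -4.61 with 1, and SNORD116-14 gave 8.21 with 0.01 and 1.99 with 1. No paired analysis was possible because each group has 1 library. Counting records at or above 1 RPKM, 67 were detected in RNC-mRNA (24 H/ACA and 4 Cajal body). Leaving out records under 120 nt, 59 of all and 2 C/D were above 0 in RNC-mRNA, 97 of all and 5 C/D in mRNA. Summed RPKM were then 4.36-fold lower in all and 1.38-fold lower in C/D, where most reads were of SNORD17. At least 2-fold lower were 45 (1 C/D), with 2 higher. Without the top record, summed RPKM were 3.22-fold lower in all and 7.32-fold lower in Cajal body RNAs. With a pseudocount of 1, the median was -1.24 in all and -0.96 in H/ACA, 21 H/ACA records were at least 2-fold lower and 1 record was higher. At a mean of at least 5 RPKM, 15 of 20 were at least 2-fold lower (5 H/ACA, 7 C/D and 3 Cajal body) and 0 higher. With no filter, 126 of 194 were lower (53 H/ACA and 59 C/D) and 25 higher, with a median of -2.34 in H/ACA. At 10 reads or more, 21 were lower (8 H/ACA and 5 C/D) and 0 higher. With only records above 0 in both libraries, chosen after seeing the data, 44 of 76 were at least 2-fold lower (13 of 32 C/D), with a median of -1.10 in all and -0.57 in C/D. Leaving out SCARNA9, also chosen after seeing the data, gave shares of reads 8.60-fold lower in Cajal body RNAs and 3.43-fold lower in all. Depth limits most single records, with a median of 2 reads.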
